A study of Oryza sativa Indica Group with 8 samples.

Results

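A set of 8 DREB loci of rice was followed in leaf RNA-seq of an OsPRR37 overexpression line and of its recipient parent. They were picked by a list of locus identifiers, with no threshold on their values, from the 35961 loci listed in the count and TPM tables. The DREB1 group had 6 of them, OsDREB1A (LOC_Os09g35030), OsDREB1B (LOC_Os09g35010), OsDREB1H (LOC_Os09g35020), OsDREB1C (LOC_Os06g03670), OsDREB1E (LOC_Os04g48350) and OsDREB1G (LOC_Os02g45450). The DREB2 group had 2, OsDREB2A (LOC_Os01g07120) and OsDREB2B (LOC_Os05g27930). OE5 is a single transgenic line that overexpresses OsPRR37 in the elite variety Guangluai 4 (GL), and GL, by the study's account, lacks a functional OsPRR37. The promoter of the transgene is not given in the sources used here. Leaves of both genotypes were taken in the morning from plants 15 days old, kept at 28°C in days of 14 h light and nights of 10 h, and no stress treatment is named in the sources. Each genotype had 2 biological replicates, written OE5-1, OE5-2, GL-1 and GL-2, and the counts per library summed to between 43423801 and 48284992. Whether a replicate was 1 plant or a pool is not given in the sources used here. The files pair no locus identifier with a gene name, so leaf marker genes and the other genes of the DREB pathway were not checked.

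DREB proteins are transcription factors of the AP2/ERF family that bind the dehydration-responsive element in the promoters of stress genes. DREB1 genes, called CBF genes in Arabidopsis, are best known for their rapid induction by cold, and DREB2 genes for their part in the responses to drought, salt and heat. In Arabidopsis the circadian clock gates CBF transcription, and PRR proteins related to OsPRR37 are known to repress CBF genes. The DREB1 and DREB2 loci were therefore compared between OE5 and GL as candidate outputs of the clock. All leaves came from a single time of day, so a shifted rhythm and a changed level over the day cannot be told apart.

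In these leaves the DREB set was dominated by OsDREB2B and OsDREB1A. TPM values are scaled to gene length, so levels of different genes can be set side by side. In OE5, OsDREB2B had the highest level, with 38.8 ± 0.527 TPM (SD, n = 2), followed by OsDREB1A with 6.43 ± 2.90 TPM and OsDREB2A with 5.18 ± 0.627 TPM. In GL, OsDREB1A came first with 34.4 ± 16.2 TPM (SD, n = 2), followed by OsDREB2B with 33.6 ± 2.92 TPM and OsDREB2A with 4.36 ± 0.186 TPM. The ranges of the first and the second locus overlapped in GL and not in OE5, while in OE5 those of OsDREB1A and OsDREB2A overlapped. Below them, OsDREB1G and OsDREB1B had mean levels from 0.607 to 1.78 TPM. OsDREB1G ranked above OsDREB1B in OE5 with overlapping ranges, and OsDREB1B above OsDREB1G in GL with ranges that did not overlap. OsDREB1C, OsDREB1H and OsDREB1E were at or under 0.268 TPM on average in both genotypes, and the ranges of these last 3 overlapped from each to the next in the order. Among all listed loci, the mean level over the 4 libraries lay at percentile 91.5 for OsDREB2B, 85.3 for OsDREB1A and 63.9 for OsDREB2A, and between 33.8 and 49.2 for the others.

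**Figure D1:**
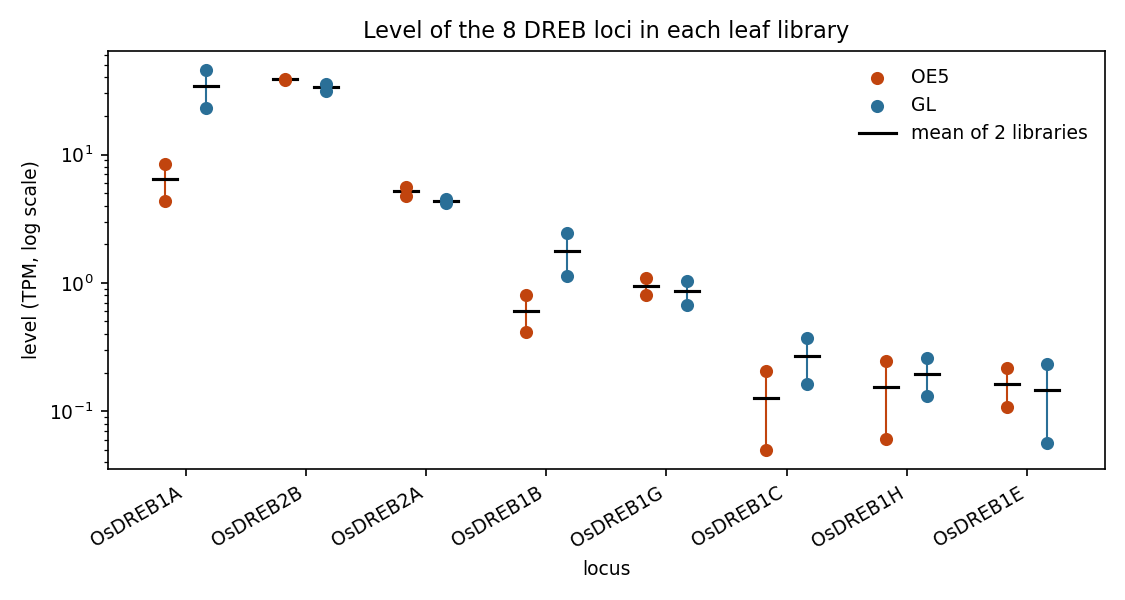
Level of each DREB locus in TPM (log axis) in the OE5 libraries (orange) and the GL libraries (blue), with a point per library and a black bar at the mean of 2 libraries. OsDREB1A lies at 4.38 and 8.48 TPM in OE5 and at 22.9 and 45.8 TPM in GL, whereas the OsDREB2B points of both genotypes fall between 31.5 and 39.2 TPM.

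OsDREB1A showed the widest separation between the genotypes. OsDREB1A is a cold-inducible activator whose overexpression in rice is known to raise tolerance to cold, drought and salt. It had 90 and 178 counts in OE5-1 and OE5-2, against 442 and 906 counts in GL-1 and GL-2. After TMM normalization, which adjusts for library size and composition, these were 84.1 and 161 normalised counts in OE5 and 477 and 1007 normalised counts in GL. Both OE5 libraries lay below both GL libraries, and within each genotype OE5-2 and GL-2 had the higher value, with a ratio of normalised counts of 1.92 in OE5 and 2.11 in GL. The log2 fold change of OE5 over GL was -2.58 (standard error 0.58, 95% interval -4.35 to -0.81), or 5.96-fold lower in OE5. Without GL-2, the GL library with the higher count, it was 3.82-fold lower. In bulk leaves, fewer cells that express a gene and less RNA per cell cannot be told apart.

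OsDREB1B, the cold-inducible relative of OsDREB1A, had 7 and 14 counts in OE5-1 and OE5-2, against 18 and 40 counts in GL-1 and GL-2. The OE5 libraries were again both below the GL libraries. Its TPM values were 0.410 and 0.804 in OE5 and 1.13 and 2.44 in GL. The log2 fold change was -1.54 (standard error 0.52, 95% interval -2.71 to -0.37), or 2.91-fold lower in OE5, and 1.84-fold lower without GL-2. OsDREB1B passed the filter on low values, a TPM sum of 2 in either genotype, only through GL, where it was higher, and with the filter applied to both genotypes it was not tested, so its fold change and p-value are a description of a locus admitted by its GL level. As for OsDREB1A, OE5-2 and GL-2 had the higher normalised count of their genotype, with a ratio of 1.94 in OE5 and 2.29 in GL.

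A locus was called when its fold change exceeded 1.5 and its p-value from the quasi-likelihood test of edgeR, adjusted after Benjamini and Hochberg over 19280 tested loci, was under 0.05. Of the 4 DREB loci that passed the filter, 0 were called. Across all tested loci, 3.39% were called in either direction and 1.28% as lower in OE5. OsDREB1A had an unadjusted p of 0.0179 and an adjusted p = 0.193 from edgeR. OsDREB1B, admitted only by its GL level, had an unadjusted p of 0.0152 and an adjusted p = 0.176 from edgeR, given as a description. An unadjusted p under 0.05 was found for 15.2% of all tested loci. DESeq2, the tool of the study, called 1 of the 4, OsDREB1A, at -2.59 on the log2 scale (standard error 0.68) and an adjusted p = 0.00454, where it called 4% of the tested loci. DESeq2 gave OsDREB1B an adjusted p = 0.303, and limma-trend on log2(TPM + 1) called none of the 4, with an adjusted p = 0.130 for OsDREB1A and 0.193 for OsDREB1B. OsDREB1A and OsDREB1B were 2 of the 4329 tested loci (22.5%) whose normalised counts in OE5 were both below those in GL, so such a separation alone was common. With a library left out, edgeR log2 fold changes ran from -3.11 to -1.93 for OsDREB1A and from -1.99 to -0.88 for OsDREB1B.

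**Figure D2:**
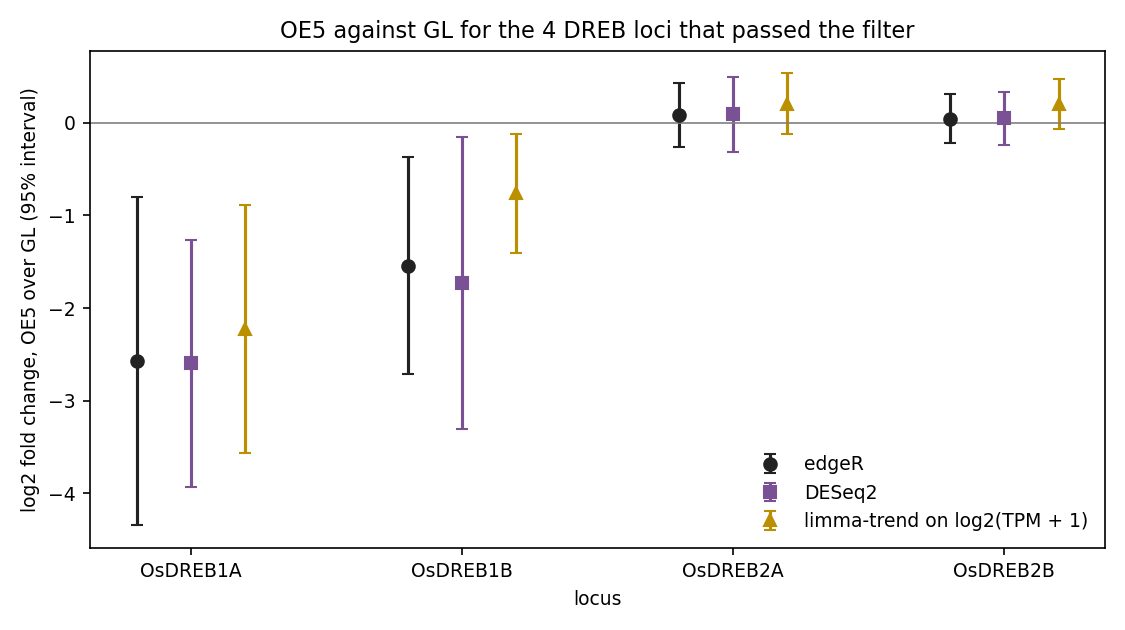
Log2 fold change of OE5 over GL with its 95% interval for the 4 DREB loci that passed the filter, from edgeR (circles), DESeq2 (squares) and limma-trend on log2(TPM + 1) (triangles). The edgeR intervals of OsDREB1A (-4.35 to -0.81) and OsDREB1B (-2.71 to -0.37) lie below 0, and those of OsDREB2A and OsDREB2B span 0. OsDREB1B passed the filter only through GL, so its interval is a description. The intervals are not adjusted for the number of loci tested, and edgeR called none of the 4.

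The libraries of a genotype differed more for OsDREB1A than for most loci. edgeR put its biological coefficient of variation, the relative spread between libraries of a genotype, at 38.1%, against a trend of 14.8% for loci of its level. That spread stood at percentile 98.8 of the tested loci, and edgeR left OsDREB1A with 3.27 degrees of freedom, against 9.29 for the median locus. For OsDREB1B the spread was 30.1%, against a trend of 25.1%. OsDREB2A (13.6%) and OsDREB2B (10.8%) lay slightly under the trend at their levels, 15.0% and 11.3%. A ratio between the libraries of a genotype as large as that of OsDREB1A was found in 2.31% of the tested loci in OE5, in 3.24% in GL and in 0.949% in both.

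**Figure D3:**
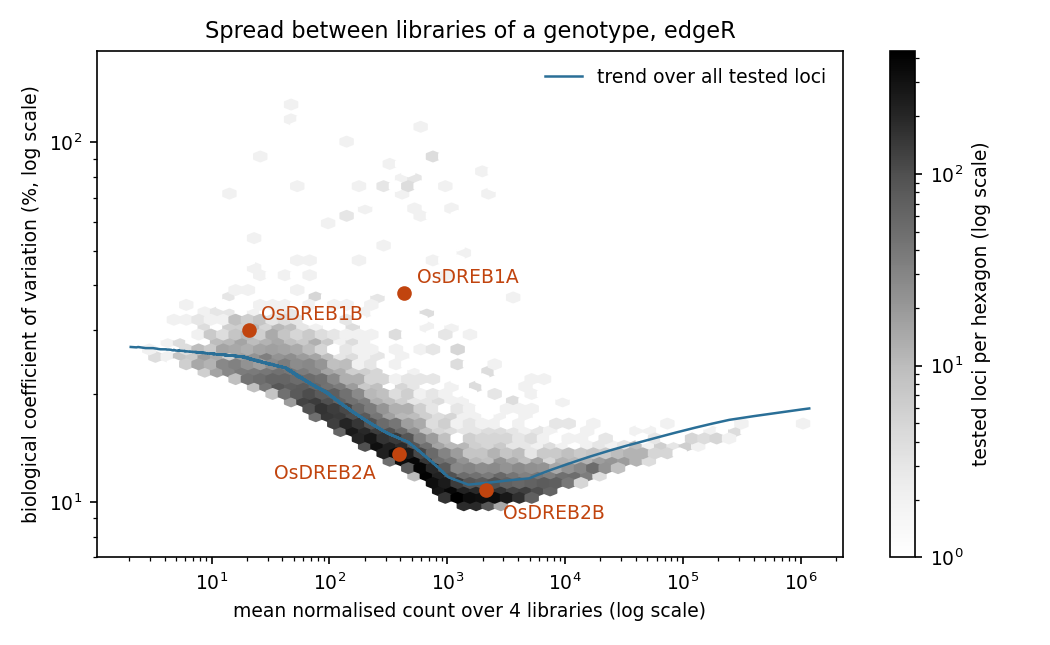
Biological coefficient of variation from edgeR (percent, log axis) against the mean normalised count over the 4 libraries (log axis) for 19280 tested loci, shaded by the number of loci per hexagon, with the trend as a line and 4 DREB loci as orange points. OsDREB1A stands at 38.1%, above the trend of 14.8%, while OsDREB2A and OsDREB2B sit just under the trend.

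OsDREB1A, OsDREB1B and OsDREB1H are neighbours on chromosome 9. Their locus numbers follow each other, and in RefSeq's assembly of Japonica rice (ASM3414082v1) 0 annotated genes lie between OsDREB1B and OsDREB1H and 0 between OsDREB1H and OsDREB1A. OsDREB1H, in the middle, had 4 and 1 counts in OE5 and 2 and 4 counts in GL, so its libraries overlapped. Its pooled ratio of OE5 over GL was 0.700 with an exact 95% counting interval from 0.169 to 2.75, so a difference was not detectable at this depth. The handling of reads that match several loci is not given in the sources used here, so the low counts of OsDREB1B and OsDREB1H beside the related OsDREB1A are uncertain. The ratio of OsDREB1A to OsDREB1B in TPM was 10.7 and 10.5 in OE5 and 20.4 and 18.8 in GL. That ratio was close within each genotype, although the levels of both genes differed between the libraries of a genotype by the ratios above. It rests on 7 and 14 counts of OsDREB1B in OE5 and 18 and 40 in GL, so this likeness is uncertain.

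The remaining DREB1 loci had from 1 to 24 counts in a library. OsDREB1G, whose overexpression is known to improve drought tolerance in rice, had 24 and 18 counts in OE5 and 14 and 22 counts in GL. The genotypes overlapped, and on a filter that kept OsDREB1G the edgeR log2 fold change was -0.03 (95% interval -1.02 to 0.96). OsDREB1C, known in rice for raising photosynthesis and nitrogen use when overexpressed, had 4 and 1 counts in OE5 and 3 and 7 counts in GL. Its pooled ratio of OE5 over GL was 0.420, with a counting interval from 0.113 to 1.35. OsDREB1E had 4 and 2 counts in OE5 and 4 and 1 counts in GL, with a pooled ratio of 1.01 and a counting interval from 0.256 to 4.17. These 3 loci and OsDREB1H were the 4 DREB loci that did not pass the filter, a TPM sum of 2 over the replicates of a genotype. The counting intervals leave out the spread between samples. They are also too narrow, since the library totals exceed the read pairs listed by the study, so some pairs were counted more than once. Whether both mates were counted, or reads were counted at several loci, is not given in the sources used here.

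Summed over the 6 DREB1 loci, the level was 6.54 and 10.3 TPM in OE5-1 and OE5-2, against 25.3 and 50.0 TPM in GL-1 and GL-2. The mean was 8.42 ± 2.66 TPM in OE5 and 37.6 ± 17.5 TPM in GL (SD, n = 2 each), a log2 ratio of -2.16. The exact two-sided permutation p of these sums was 0.333, which no comparison of 2 with 2 libraries can go below. OsDREB1A made up 66.9% and 82.3% of the sum in OE5, against 90.8% and 91.7% in GL. The share of OsDREB1G was 16.6% and 7.75% in OE5 and 2.68% and 2.07% in GL, although the level of OsDREB1G overlapped between the genotypes.

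**Figure D4:**
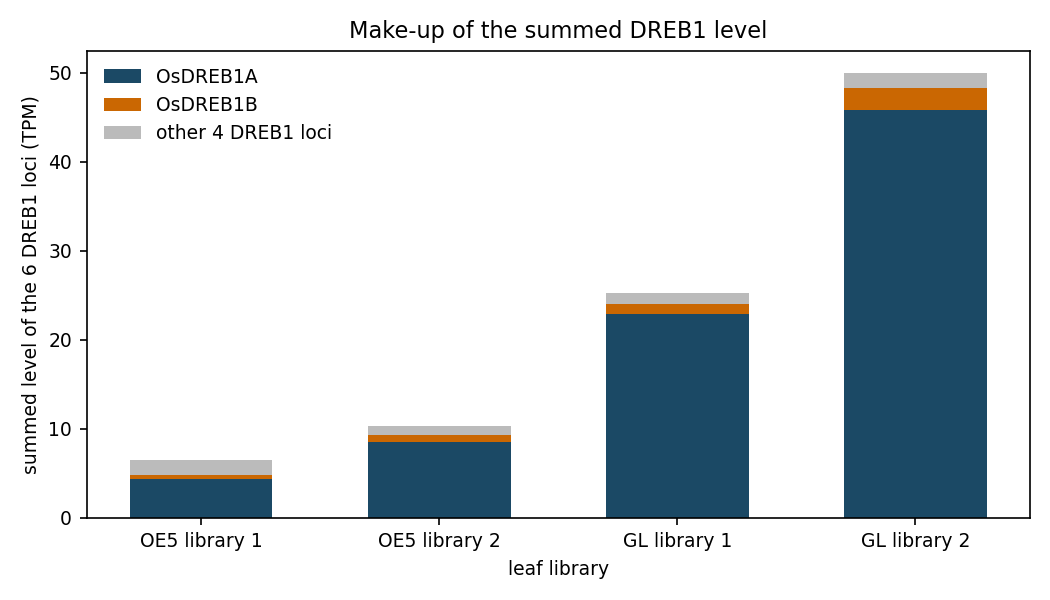
Summed level of the 6 DREB1 loci in TPM in each library, split into OsDREB1A (dark blue), OsDREB1B (orange) and the other 4 loci (grey). The OE5 bars reach 6.54 and 10.3 TPM and the GL bars 25.3 and 50.0 TPM, and OsDREB1A fills most of each bar.

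The DREB2 loci had similar levels in both genotypes. OsDREB2A, which is induced by dehydration and salt, had 397 and 481 counts in OE5 and 352 and 340 counts in GL. After TMM normalization these were 371 and 436 in OE5 and 380 and 378 in GL, so the genotypes overlapped. Its log2 fold change was 0.09 (standard error 0.15, 95% interval -0.26 to 0.43, adjusted p = 0.869 from edgeR), so the data allowed a level in OE5 from 0.837 to 1.35 times that in GL.

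OsDREB2B had 2362 and 2365 counts in OE5 and 1779 and 2065 counts in GL, or 2207 and 2142 normalised counts in OE5 and 1921 and 2295 in GL. Both OE5 values lay between the GL values on this scale. The log2 fold change was 0.04 (standard error 0.12, 95% interval -0.22 to 0.31, adjusted p = 0.921 from edgeR), which corresponds to a level in OE5 from 0.857 to 1.24 times that in GL. OsDREB2B is known for alternative splicing in rice, by which a transcript without a functional protein prevails in the absence of stress. RefSeq lists 7 transcripts for OsDREB2B and 1 for each of the other 7 genes, and counts per locus cannot separate them.

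On the TPM scale, the libraries of OsDREB2B did not overlap, with 39.2 and 38.4 TPM in OE5 and 31.5 and 35.6 TPM in GL. The same held for OsDREB2A, with 4.74 and 5.63 TPM in OE5 and 4.49 and 4.22 TPM in GL. How common such a separation in TPM was among all tested loci was not counted. By normalised counts, the genotypes overlapped for both loci, as given above. The median tested locus was also higher in OE5, by 0.14 on the log2(TPM + 1) scale. By limma-trend the differences were 0.20 for OsDREB2A and 0.21 for OsDREB2B. Whether they are part of that shift was not tested. The sum of both DREB2 loci was 43.90 and 44.05 TPM in OE5 and 35.98 and 39.85 TPM in GL, with p = 0.333 in the exact permutation test. As TMM-normalized CPM, the sums were 55.7 and 55.7 in OE5 and 49.7 and 57.7 in GL, and the exact permutation p was 1. Relative to OsDREB1A in the same library, OsDREB2B had 8.95 and 4.53 times its TPM in OE5, against 1.37 and 0.777 times in GL.

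The loci around the DREB genes were compared as well, by taking the 2 nearest listed loci on each side by locus number. Of these 24 loci, 14 were tested, and none was called by edgeR, beside the 3.39% called over all tested loci. Of the 4 around OsDREB1A, OsDREB1B and OsDREB1H, only 1 was tested, so the 14 say little about that region. None of the 14 had an unadjusted p under 0.05 from edgeR, beside 15.2% of all tested loci. DESeq2 called 0 of them, beside 4% of all tested loci. With 14 loci, such counts say little. Their log2 fold changes ran from -0.30 to 0.24, with a median of 0.01, against -0.01 for all tested loci. Next to OsDREB1B on chromosome 9, LOC_Os09g35000 had 106 and 120 counts in OE5 and 126 and 109 counts in GL, and it had the lowest log2 fold change of the 14 (-0.30, adjusted p = 0.619 from edgeR).

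By the distance of log2 CPM values centred over the 4 libraries, the tested loci most like OsDREB2B were LOC_Os07g02300 (distance 0.0119) and LOC_Os04g28234 (distance 0.0120). For OsDREB1A, a search chosen after its values were seen found LOC_Os11g38580 (distance 0.329) as the nearest. LOC_Os11g38580 had 147 and 190 normalised counts in OE5 and 638 and 1129 in GL. Its log2 fold change of -2.38 follows from its choice by likeness to OsDREB1A, so no test of it is given. With 4 libraries such likeness is a description only.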

How the data were processed

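Per the labels and the study's methods, the authors trimmed reads with fastp (0.20.1), used HISAT2 (2.1.0) for mapping to the MSU v7.0 assembly of Nipponbare, and quantified loci with TPMCalculator. The deposited counts are raw reads per locus, and the deposited TPM values are scaled to length and library. Counts were tested with edgeR 4.0.16 in R 4.3.3 (TMM, robust quasi-likelihood fit, prior count 2) over 19280 of 35961 listed loci with a TPM sum of 2 in GL or OE5, the study's filter. Standard errors were obtained by dividing the size of the log2 fold change by the root of F. DESeq2 1.42.0 and limma 3.58.1 (pseudocounts 1 and 0.1), other normalizations, filters and fold limits, a replicate block and libraries left out were alternatives. The tests were tested on simulated data. As a check for a library deposited more than once, counts of replicates were compared. The chi-square for each degree of freedom was 64.9 in OE5 and 214 in GL, so each library was kept. Some pairs were counted more than once, which inflates these values. Permutation tests used scipy 1.17.1. The 8 loci, lists and tests were chosen with earlier results of these data known. Named genes were the 8 loci, called loci beside them, and the 2 loci most like the one with the highest mean TPM, OsDREB2B. LOC_Os09g35000 and LOC_Os11g38580 fall outside that rule and were chosen after their values were seen. Names of the 8 loci came with the list, and RefSeq knows each as a synonym (8 matched), but none of the identifiers in the files (0 matched). No DREB sequence is shown. Bisulfite samples, mapped to genotypes by their labels, and the overexpressed gene are not reported here.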

Additional observations from a re-analysis of the deposited data

How the results depend on the processing

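The count of called DREB loci was 0 of 4 with edgeR, beside 653 of 19280 loci in all. It was 1 with DESeq2 (OsDREB1A, beside 772) and 1 with the replicate block (OsDREB1A). Without a filter on low values it was 1 of 8 (OsDREB1B, adjusted p = 0.0388 from edgeR), beside 1207 of 35961. Leaving out GL-1 or GL-2 raised both counts, and leaving out an OE5 library lowered the total. OsDREB1A kept a negative log2 fold change throughout, from -3.11 to -1.93 over the fits that left out a library. By edgeR it was called when GL-1 (adjusted p = 0.0359) or GL-2 (adjusted p = 0.00784) was left out, and not without OE5-1 (adjusted p = 0.632) or OE5-2 (adjusted p = 0.422). In such fits the lone library is assumed to vary like the other genotype. OsDREB1B ranged from -1.99 without GL-1 to -0.88 without GL-2. With the TPM filter applied to both genotypes OsDREB1B was not tested. OsDREB2A ranged from -0.031 to 0.20, with the sign turned without OE5-2, and OsDREB2B from -0.068 to 0.19, with the sign turned without GL-1. The cause of these changes was not tested. The called loci numbered 653 over all tested loci, 1207 without a filter, 344 with a fold change over 2 and from 194 to 1270 with a library left out. The log2 ratio of the DREB2 sum, 0.21 in TPM, was 0.052 as TMM-normalized CPM, and ranged from 0.14 to 0.29 with a library left out. In the order of levels averaged over both genotypes, 6 of the 8 loci kept their rank by raw counts and from 5 to 8 with a library left out, the lowest without GL-2. Loci next to the DREB genes had 0 calls under every alternative run.

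The replicate numbers are shared by the genotypes, but no source says that they mark a shared batch. Over the tested loci, the deviations of libraries with equal numbers correlated at 0.13 (Pearson) and -0.14 (Spearman). With the replicate block, edgeR put OsDREB1A at -2.56 (standard error 0.18, adjusted p = 2.16e-05), and 708 loci were called in all. With crossed numbers, chosen after seeing the data, edgeR put OsDREB1A at -2.53 (standard error 0.91, adjusted p = 0.517). In that fit, 0 DREB loci and 751 loci in all were called. With counts halved, also chosen then, 0 DREB loci and 661 loci in all were called.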
